A study of Homo sapiens with 6 samples.

Results

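The transcripts described here are those of the glutathione transferases, glutathione peroxidases and peroxiredoxins of HT29, a human cell line derived from a colorectal adenocarcinoma, after 24 h with YM155 or with DMSO, its solvent control. YM155 is a small imidazolium-naphthoquinone known as a suppressant of survivin. Members were all rows whose whole gene symbol was GST followed by a class letter (A, K, M, O, P, T or Z) and a number, or MGST, GPX or PRDX followed by a number. This gave 34 of the 26255 genes listed, namely 17 glutathione transferases (GST), 3 microsomal glutathione transferases (MGST), 8 glutathione peroxidases (GPX) and 6 peroxiredoxins (PRDX). The 2 groups were YM155-treated cells (3 libraries) and DMSO-treated cells (3 libraries). Nothing in the labels says whether the 3 libraries of a group came from separate cultures, so p-values measure the spread between these libraries, which may be technical. The treatment field names the compound YM155, and the library titles and column headers spell it YM115.

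Glutathione is the main small thiol of the cell. Glutathione transferases join it to reactive electrophiles, and the glutathione peroxidases spend it to reduce hydrogen peroxide and lipid peroxides. Peroxiredoxins also reduce peroxides, through a reactive cysteine that is mostly recharged by thioredoxin. Several genes of these families are known targets of NRF2, a transcription factor released by oxidants and electrophiles that binds antioxidant response elements.

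Levels are FPKM, sequenced fragments per kilobase of a transcript and per unit of library size, as the authors deposited them, so levels of different genes can be set side by side per length. The files hold no read totals. The steps between low values correspond to about 15.2 to 18.2 M effective reads in the YM155 libraries and 24.7 to 27.1 M in the DMSO libraries, so the counting error of scarce members is larger with YM155. FPKM summed to between 678699 and 696067 in the YM155 libraries and between 538478 and 563296 in the DMSO libraries. Of 10 colon epithelial markers 9 averaged at least 1 FPKM, and CDX1 was under 1 FPKM in all 6 libraries. The 10 summed to between 8022 and 8697 FPKM with YM155 and between 4436 and 4641 FPKM with DMSO, a sum carried by KRT8 and KRT18. VIL1 (19.8 to 25.0 FPKM with YM155, 37.9 to 39.2 with DMSO) and CDX2 (0.686 to 0.973 FPKM with YM155, 2.91 to 3.73 with DMSO) stood lower in every YM155 library than in any DMSO library. Among 13 markers of blood, stroma, endothelium and liver, CD68 summed with the other blood markers to between 79.3 and 88.2 FPKM with YM155 and between 4.15 and 6.06 FPKM with DMSO, and TTR lay between 2.12 and 2.46 FPKM with YM155 and between 4.34 and 7.04 FPKM with DMSO. The other 11 were under 1 FPKM in all libraries, and the part of CD68 or TTR in the results below was not tested. In bulk RNA, fewer cells of a kind and less RNA per cell cannot be told apart.

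With YM155, GPX2, GPX4, GPX3 and PRDX1 transcripts were higher, PRDX1 not in every scaling of the libraries. By contrast, GSTP1, GSTK1, GSTO2, GSTT1, GSTZ1, GSTA4, MGST2, PRDX2, PRDX3, PRDX4, PRDX5 and the scarce GPX8 were lower. GPX2, the peroxidase of the gut epithelium, averaged 1239 ± 37.1 FPKM with YM155 and 607 ± 40.7 FPKM with DMSO (SD, n = 3 each). MGST2 averaged 18.6 ± 2.11 FPKM with YM155 and 57.4 ± 2.69 FPKM with DMSO, and GSTA4 averaged 2.49 ± 0.487 FPKM with YM155 and 10.2 ± 0.921 FPKM with DMSO. The most abundant transferase, GSTP1, averaged 520.2 ± 40.2 FPKM with YM155 and 654 ± 26.6 FPKM with DMSO.

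The position that sets the catalytic residue of each peroxidase is shown first, because it separates the selenium-dependent members from the rest. Each line gives 27 bases of the coding sequence, read 5′ to 3′ from the principal transcript in GENCODE release 29 (GRCh38), with the catalytic codon in capitals.
GPX2: gtggcttcgctcTGAggcacaaccacc
GPX4: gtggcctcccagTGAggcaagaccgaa
GPX3: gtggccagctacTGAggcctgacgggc
GPX1: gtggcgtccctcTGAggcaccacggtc
GPX8: gtggccagtgacTGCcaactcacagac
In GPX1, GPX2, GPX3, GPX4 and GPX6 this codon is TGA, elsewhere a stop signal, which these messages translate as selenocysteine. GPX5 has TGT there, and GPX7 and GPX8 have TGC, both codons of cysteine. It is codon 40 of 190 in GPX2, codon 73 of 197 in GPX4, codon 73 of 226 in GPX3 and codon 49 of 203 in GPX1. In each of these 4 transcripts it lies upstream of the last exon junction, by 102 bases in GPX2, 342 in GPX4, 240 in GPX3 and 105 in GPX1.

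Promoters were searched for the core of the antioxidant response element, written here as TGACNNNGC, and for the related TGAGNNNGC, on both strands, in windows of 250 bases before to 50 bases after each gene start (RefSeq, GRCh38.p14). The 2 motifs differ in the base before the run of N, so no match counts for both. Of the 34 members 29 had a window (all but GSTT1, GSTT2, MGST2, PRDX1 and PRDX6), in which TGACNNNGC was found for 7 (24.1%), against 16.1% of all 27305 symbols with a window. TGAGNNNGC was found for 11 members (37.9%), against 21.6% of all symbols. The next lines give 3 stretches upstream of the start, with TGACNNNGC or its reverse complement in capitals. They are shown because they belong to the most abundant peroxidase, the most abundant transferase and a transferase with 2 matches, which did not change alike.
GPX2 (chr14:64942839-64942887, minus strand): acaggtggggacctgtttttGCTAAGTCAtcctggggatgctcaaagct
GSTP1 (chr11:67583726-67583774, plus strand): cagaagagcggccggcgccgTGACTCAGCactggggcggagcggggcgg
GSTO1 (chr10:104254646-104254759, plus strand): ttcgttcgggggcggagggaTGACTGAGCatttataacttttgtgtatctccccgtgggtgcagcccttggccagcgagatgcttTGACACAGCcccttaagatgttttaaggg
The match in GPX2, TGACTTAGC on the opposite strand, begins 122 bases before the gene start, and that in GSTP1, TGACTCAGC, 66 bases before it. GPX2 was higher, GSTP1 was lower and GSTO1 did not pass the test with the deposited values. GSTO1 passed as lower with upper-quartile scaling, rescaling to a common sum and quantile normalization. The 3 stretches were picked with these changes known, so finding the motif in each is no result about direction. Of the tested members with a window, TGACNNNGC was found in 2 of 4 that were higher (GPX2 and MGST1, whose direction turned with other scalings) and in 2 of 13 that were lower (GSTP1 and GSTA4). TGAGNNNGC was found in 0 of those 4 and in 7 of those 13. Among the 7 is GSTM4, whose call as lower is no support for a difference. How many of all genes called higher or lower carry each motif was not counted, so these counts show no link with direction. A match is a run of letters and not evidence of binding.

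On average 20 members reached 1 FPKM with YM155 and 22 with DMSO, the difference being GPX8 and GSTM4. All members together made up 0.571% of the summed FPKM of a library with YM155 and 0.604% with DMSO. At 100 FPKM or more stood 8 members with YM155 and 11 with DMSO. GPX2 ranked 95th of all 26255 genes by mean FPKM with YM155 and 121st with DMSO, PRDX1 ranked 123rd with YM155 and 128th with DMSO, and GSTP1 ranked 172nd with YM155 and 116th with DMSO. GPX5, GPX6, GSTA5, GSTM1 and GSTM5 were listed at 0 in all 6 libraries. GPX7, GSTA1, GSTA2, GSTA3, GSTM2, GSTM3 and GSTT2 were listed at 0 in at least 1 library and never exceeded 0.728 FPKM. GSTA1 and GSTA2, the alpha class transferases that dominate in liver, were scarce in both groups. GSTA2 was at 0.0590, 0 and 0.0579 FPKM with YM155 and at 0.728, 0.660 and 0.590 FPKM with DMSO, and GSTA1 was listed at 0 with YM155 and at 0.416, 0.276 and 0.618 FPKM with DMSO. Of the runs of 50 bases in GSTA1, 23.9% also occur in GSTA2, and 18.4% of those in GSTA2 also occur in GSTA1, so neither level is certain. These 12 members were too scarce to be tested.

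**Figure D1:**
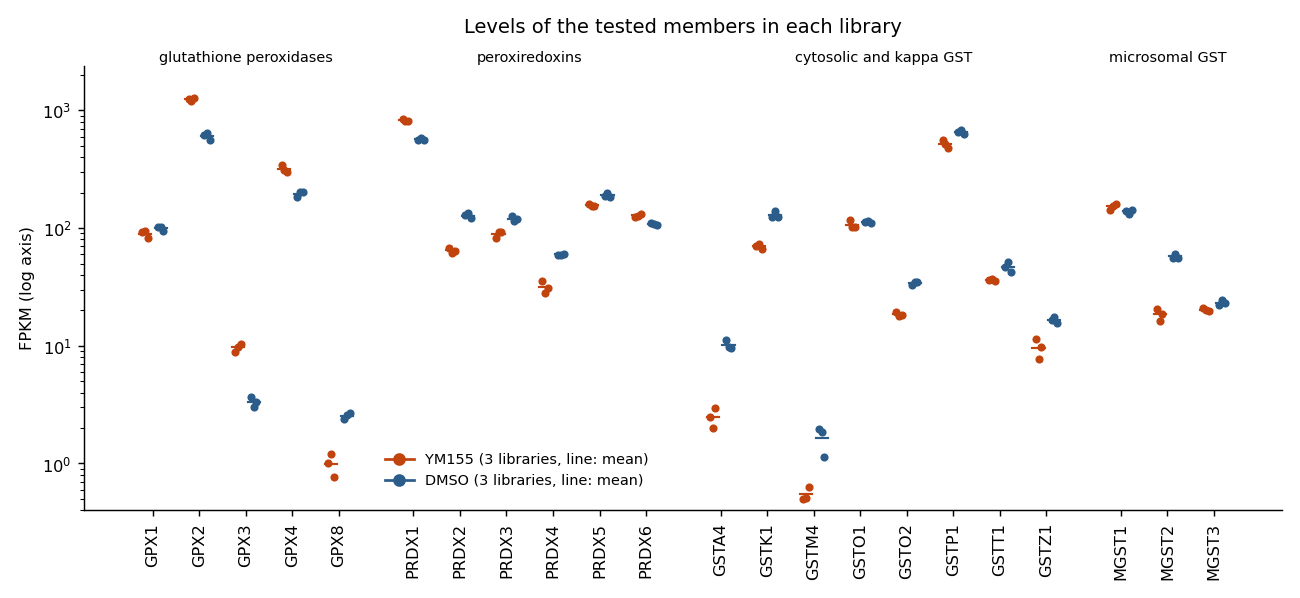
FPKM (log axis) of the 22 tested members in each library, with YM155 libraries on the left of each gene and DMSO libraries on the right. Points are single libraries and lines are group means; the groups overlap only for GPX1 and GSTO1.

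The remaining 22 members passed the filter of at least 1 FPKM in at least 3 of the 6 libraries. GSTM4 passed it through the DMSO libraries alone, so its call as lower is no support for a difference. The test was limma on log2(FPKM + 1), adjusted by Benjamini-Hochberg across the 12035 genes that passed, and a gene counts as higher or lower at an adjusted p under 0.05. Fold changes on this scale understate the change of scarce transcripts. Of the 22, 21 passed, against 84.7% of all tested genes. The 6 that were higher made up 27.3% of the members, against 43.6% of all tested genes, and the 15 that were lower made up 68.2%, against 41.0%. The exception was GSTO1. Leaving out genes that passed the filter through 1 group alone, 6 of 21 members were higher (28.6%, against 44.9% of 11193 genes) and 14 lower (66.7%, against 38.7%). Libraries of the 2 groups did not overlap for 20 of the 22 members, against 85.9% of all tested genes, with all YM155 libraries above for 6 (44.4% of all tested genes) and all below for 14 (41.5% of all tested genes). Past 1 in absolute log2 fold change, 2 members were higher (15.9% of all tested genes) and 2 were lower (11.8% of all tested genes). Replicate libraries were close, with a median coefficient of variation of 6.99% with YM155 and 4.79% with DMSO. The median log2 fold change of the 22 was -0.35, against 0.02 for all tested genes. Among the 3963 tested genes with a mean of at least 20 FPKM over all libraries, 59.3% were higher and 27.3% lower, whereas of the 17 members at that level 5 were higher and 11 lower.

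Directions of small changes depended on how the libraries were scaled. The median log2 fold change of all tested genes was 0.02 with the deposited values, -0.20 with upper-quartile scaling, -0.27 when rescaled to a common sum, -0.07 with quantile normalization and 0.06 with median-of-ratios scaling. Among the members 4 were higher and 16 lower with upper-quartile scaling, and 4 were higher and 17 lower when rescaled to a common sum. With quantile normalization, under which 21 members were tested, 3 were higher and 17 lower. With median-of-ratios scaling 6 were higher and 14 lower. The next shares are of all genes called higher or lower, not of all tested genes. Of these calls 51.5% were higher with the deposited values, 40.3% with upper-quartile scaling and 36.9% when rescaled to a common sum. The share was 46.3% with quantile normalization and 53.3% with median-of-ratios scaling. At least 1 scaling moved the log2 fold change of 14 members by over 1.5 times, while GPX3, GSTA4, GSTM4, GSTO2, GSTZ1, MGST2, PRDX2 and PRDX4 moved by less. Upper-quartile scaling, rescaling and median-of-ratios scaling multiply every gene of a library by 1 factor, so they shift nearly all genes together.

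**Figure D2:**
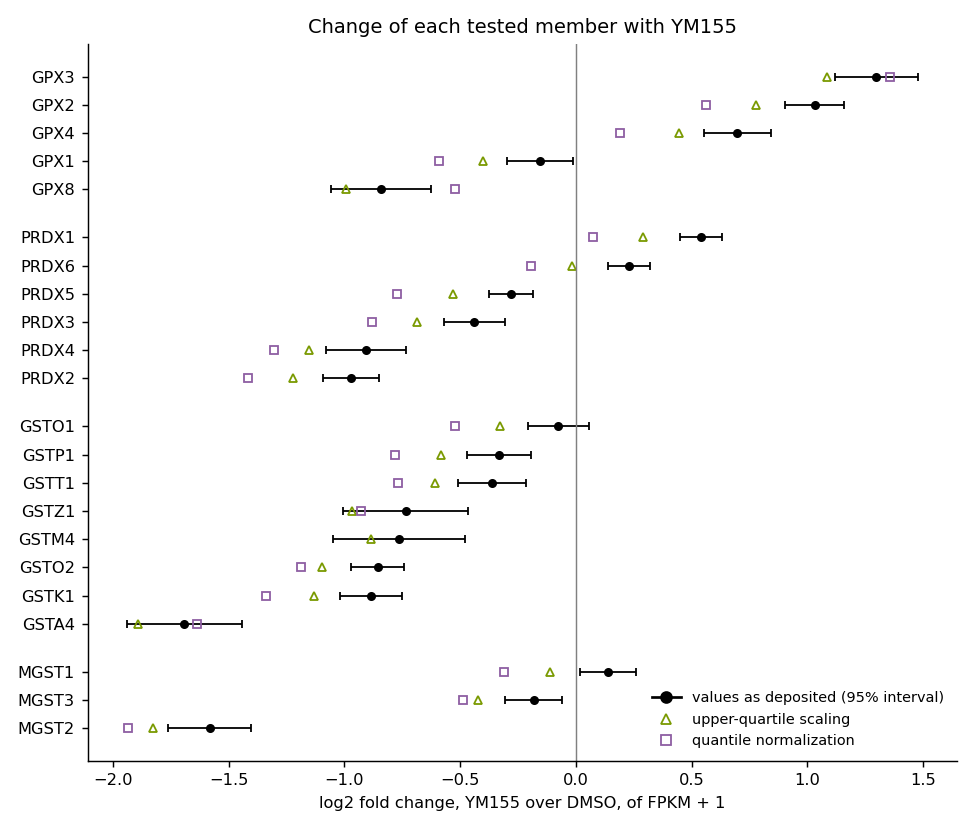
Log2 fold change (YM155 over DMSO, of FPKM + 1) of each tested member by family. Black points with bars are the deposited values and their 95% intervals, triangles are upper-quartile scaling and squares quantile normalization, under which GSTM4 was not tested; MGST1 and PRDX6 lie right of 0 with the deposited values and left of 0 under both other scalings.

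Among the glutathione peroxidases, 3 of the 5 tested members were higher (60%, against 43.6% of all tested genes) and 2 lower (40%, against 41.0%). GPX2, an enzyme known mainly from the epithelium of the gut, was at 1243, 1200.2 and 1274 FPKM with YM155 and at 613, 644 and 563 FPKM with DMSO. All 3 YM155 libraries stood far above the DMSO libraries, a 2.04-fold difference of means (log2 fold change 1.03, SE 0.06, adjusted p = 2.0e-07). It was 0.56 with quantile normalization, the lowest of the scalings. GPX4, which reduces peroxidised phospholipids in membranes and restrains ferroptosis, was at 346, 313 and 298 FPKM with YM155 and at 184, 204 and 201 FPKM with DMSO. Its groups were likewise apart, with a 1.63-fold difference (log2 fold change 0.70, SE 0.06, adjusted p = 6.1e-06). With upper-quartile scaling, rescaling to a common sum and quantile normalization it was 0.45, 0.38 and 0.19, and it still passed.

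GPX3, a secreted peroxidase found in plasma, was scarce, at 8.93, 9.81 and 10.3 FPKM with YM155 and at 3.64, 3.05 and 3.35 FPKM with DMSO. Every YM155 library was above every DMSO library, and with a 2.89-fold difference of means GPX3 had the largest log2 fold change of the 22 tested members (1.30, SE 0.08, adjusted p = 4.2e-07). GPX1, the widespread cytosolic peroxidase, was at 92.4, 94.4 and 81.7 FPKM with YM155 and at 101, 103 and 94.3 FPKM with DMSO. The highest YM155 library was just above the lowest DMSO library, and the call of GPX1 as lower was marginal (log2 fold change -0.15, SE 0.06, adjusted p = 0.043). The call was lost without YM155 replicate 3 (adjusted p = 0.16), without DMSO replicate 1 (0.12) and without DMSO replicate 2 (0.12). It was also lost with median-of-ratios scaling (0.11), with eBayes without a trend (0.074) and with no filter on low values (0.081). With upper-quartile scaling, rescaling to a common sum and quantile normalization it held, at log2 fold changes of -0.40, -0.47 and -0.59. Of the runs of 50 bases in GPX1, 20.3% also occur in the pseudogene GPX1P1, so its level is uncertain.

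GPX8, a membrane peroxidase of the endoplasmic reticulum, was at 1.01, 1.19 and 0.769 FPKM with YM155 and at 2.40, 2.57 and 2.70 FPKM with DMSO (log2 fold change -0.84, SE 0.09, adjusted p = 2.7e-05). Its groups did not overlap. Of the 4 tested members with a selenocysteine codon 3 were higher and GPX1, by its marginal call, was lower. GPX8, the only tested member with a cysteine codon, was lower. Over all tested genes 43.6% were higher and 41.0% lower, and with 1 member of the cysteine kind the codons cannot be compared. GPX2 and GPX1 are both cytosolic selenoenzymes, and the difference between their changes was not tested. Their ratio within a library, which does not depend on scaling a library by a factor, was 13.5, 12.7 and 15.6 with YM155 and 6.04, 6.26 and 5.97 with DMSO.

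Summed over the family, the glutathione peroxidases reached 1692, 1619 and 1665 FPKM with YM155 and 905, 956 and 865 FPKM with DMSO, a 1.83-fold difference of means. GPX2 made up 74.7% ± 1.59 of that sum with YM155 and 66.7% of it with DMSO. Without GPX2 the sum was 420 ± 28.6 FPKM with YM155 and 302 ± 10.4 FPKM with DMSO (SD, n = 3 each).

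**Figure D3:**
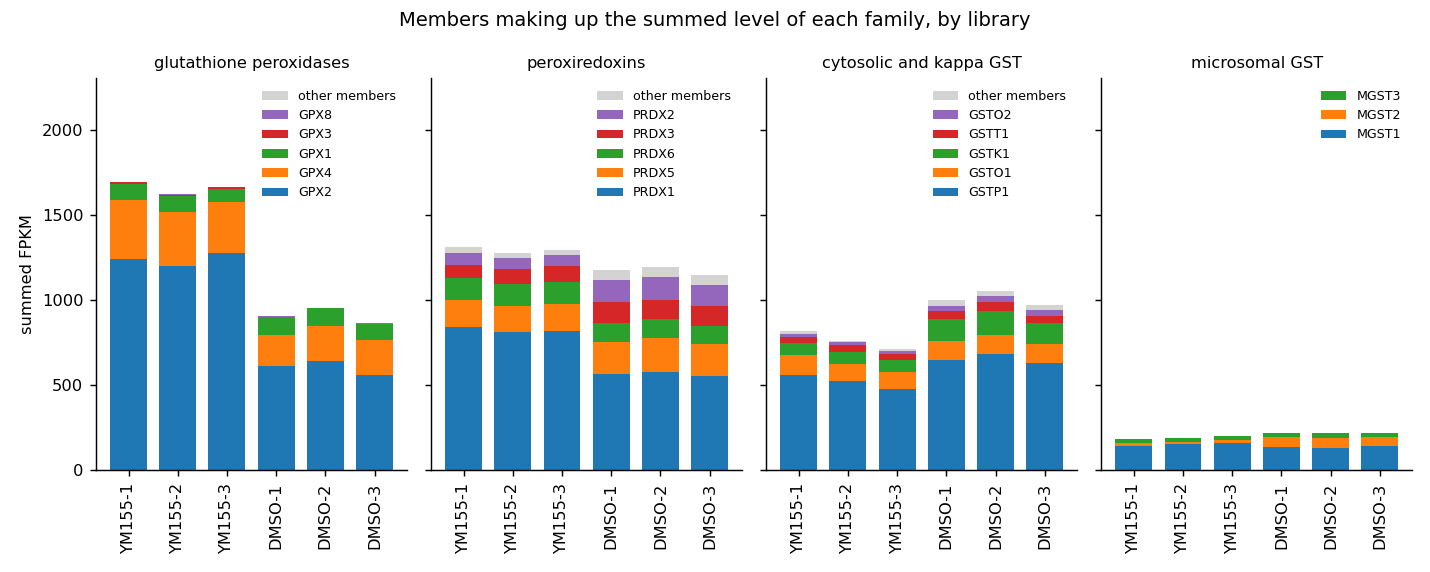
Summed FPKM of each family in each library, stacked by member, with the YM155 libraries on the left and the DMSO libraries on the right of each panel; grey holds the members not named. GPX2 fills most of the peroxidase bars, and the transferase bars are lower with YM155.

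Among the peroxiredoxins, all 6 were tested. Of these 4 were lower (66.7%, against 41.0% of all tested genes). PRDX1 and PRDX6 were higher (33.3%, against 43.6%), PRDX6 not in every scaling. PRDX1, the main cytosolic and nuclear peroxiredoxin and a known NRF2 target, was at 841, 812 and 818 FPKM with YM155 and at 564, 580.2 and 555 FPKM with DMSO. The 3 YM155 libraries lay well above the DMSO libraries (adjusted p = 1.5e-06, log2 fold change 0.54, SE 0.04), and the call ended only with quantile normalization (log2 fold change 0.07, adjusted p = 0.064). It was 0.29 with upper-quartile scaling and 0.22 when rescaled to a common sum. Part of the PRDX1 transcript overlaps MMACHC on the other strand, with 28.0% of its runs of 50 bases shared, and whether strand was used in quantification is not given in the sources used here. MMACHC itself averaged 0.851 FPKM with YM155 and 5.62 FPKM with DMSO, far below PRDX1 in both groups.

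PRDX6, which also has phospholipase activity and is recharged by glutathione, was at 125, 128 and 132 FPKM with YM155 and at 111, 109 and 107 FPKM with DMSO. The groups did not overlap and the log2 fold change was 0.23 (SE 0.04, adjusted p = 0.00046), but it turned to -0.02, -0.09 and -0.20 with upper-quartile scaling, rescaling to a common sum and quantile normalization. Relative to the median of all tested genes these values were 0.21 as deposited and 0.19, 0.18 and -0.12 under those scalings. By limma PRDX6 passed as lower with quantile normalization (adjusted p = 0.0018).

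PRDX2, the cytosolic relative of PRDX1 known for its abundance in red cells, was at 67.9, 61.7 and 64.1 FPKM with YM155 and at 129, 133 and 121 FPKM with DMSO, a 1.98-fold fall with YM155 (log2 fold change -0.97, SE 0.05, adjusted p = 2.1e-07). Part of its transcript, 21.4% of the runs of 50 bases, lies opposite an antisense gene in the annotation. PRDX4, the peroxiredoxin of the endoplasmic reticulum, was at 35.7, 28.3 and 30.8 FPKM with YM155 and at 59.3, 59.5 and 60.4 FPKM with DMSO (log2 fold change -0.91, SE 0.08, adjusted p = 3.5e-06). For both genes every YM155 library was below every DMSO library.

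The peroxiredoxins found in mitochondria were also lower. PRDX3 was at 81.6, 91.8 and 91.9 FPKM with YM155 and at 126, 115 and 119.9 FPKM with DMSO (log2 fold change -0.44, SE 0.06, adjusted p = 8.0e-05). PRDX5, found in mitochondria, peroxisomes and cytosol, was at 160.4, 153 and 156 FPKM with YM155 and at 188, 197 and 185 FPKM with DMSO (log2 fold change -0.28, SE 0.04, adjusted p = 0.00019). Neither gene's groups overlapped. With quantile normalization the log2 fold change was -0.88 for PRDX3 and -0.77 for PRDX5.

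The summed level of the peroxiredoxins was 1312, 1274 and 1292 FPKM with YM155 and 1176, 1194 and 1149 FPKM with DMSO, while its makeup shifted. PRDX1 held 63.7% ± 0.396 of the sum with YM155 and 48.3% of it with DMSO. Without PRDX1 the sum was 469 ± 5.81 FPKM with YM155 and 607 ± 11.3 FPKM with DMSO. The ratio of PRDX1 to PRDX2 within a library was 12.4, 13.2 and 12.8 with YM155 and 4.39, 4.35 and 4.59 with DMSO. The direction of the family sum depended on scaling: its log2 ratio of 0.14 with the deposited values turned to -0.11, -0.18 and -0.32 with upper-quartile scaling, rescaling to a common sum and quantile normalization.

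Among the glutathione transferases, 8 of 17 were tested. By limma 7 of them were lower (87.5%, against 41.0% of all tested genes). Higher were 0 (0%, against 43.6%), also 0 at an unadjusted p under 0.05, and GSTO1 did not pass. Leaving out genes that passed the filter through 1 group alone, here GSTM4, 6 of 7 were lower (85.7%, against 38.7% of all such genes). GSTP1, the pi class enzyme that prevails in colon and in many tumours, was at 559, 522 and 479 FPKM with YM155 and at 649, 683 and 630.3 FPKM with DMSO. The groups did not overlap (log2 fold change -0.33, SE 0.06, adjusted p = 0.00073), and with upper-quartile scaling, rescaling to a common sum and quantile normalization the log2 fold change was -0.58, -0.65 and -0.78. GSTK1, the kappa class enzyme of mitochondria and peroxisomes, was at 70.2, 72.7 and 66.8 FPKM with YM155 and at 125, 141 and 124 FPKM with DMSO. Its YM155 libraries all stood well below the DMSO libraries (log2 fold change -0.88, SE 0.06, adjusted p = 7.4e-07).

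The omega class genes GSTO1 and GSTO2, whose enzymes also act as thiol transferases, gave unequal values, a difference that was not tested. GSTO2 was at 19.3, 17.8 and 18.2 FPKM with YM155 and at 33.1, 34.9 and 34.6 FPKM with DMSO (log2 fold change -0.86, SE 0.05, adjusted p = 3.1e-07). GSTO1 was at 117, 103 and 101 FPKM with YM155 and at 112, 114 and 111 FPKM with DMSO, with overlapping groups (log2 fold change -0.08, 95% interval -0.21 to 0.05, adjusted p = 0.24). The ratio of GSTO1 to GSTO2 within a library was 6.06, 5.75 and 5.55 with YM155 and 3.39, 3.27 and 3.21 with DMSO. GSTO1 passed as lower with upper-quartile scaling (log2 fold change -0.33), rescaling to a common sum (-0.40), quantile normalization (-0.52) and without YM155 replicate 1 (-0.14).

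GSTT1, the theta class enzyme that handles small halogenated compounds, was at 36.0, 36.9 and 35.8 FPKM with YM155 and at 46.8, 51.2 and 42.7 FPKM with DMSO (log2 fold change -0.36, SE 0.06, adjusted p = 0.00057). Its YM155 libraries lay close together and below every DMSO library, and the log2 fold change was -0.77 with quantile normalization. GSTZ1, the zeta class enzyme of tyrosine breakdown, averaged 9.66 ± 1.87 FPKM with YM155 and 16.6 ± 1.02 FPKM with DMSO (log2 fold change -0.74, SE 0.12, adjusted p = 0.00029). An exon of it overlaps POMT2 on the other strand, but 0% of its runs of 50 bases are shared with another gene.

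GSTA4, the alpha class enzyme that conjugates the lipid aldehyde hydroxynonenal, had the lowest log2 fold change of the 22 tested members with the deposited values (MGST2 was lower with quantile normalization). It was at 2.47, 2.01 and 2.98 FPKM with YM155 and at 11.3, 9.78 and 9.57 FPKM with DMSO, 4.10-fold lower with YM155 (log2 fold change -1.69, SE 0.11, adjusted p = 6.0e-07). The groups were far apart. GSTM4, of the mu class, was near the limit of what was tested, at 0.546 ± 0.0716 FPKM with YM155 and 1.65 ± 0.440 FPKM with DMSO. Its log2 fold change of -0.76 is a description, with no test, since the filter admitted it through DMSO alone. Mu class transcripts share sequence, and 18.6% of the runs of 50 bases of GSTM4 also occur in other genes, so its level is uncertain.

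The transferases summed to 816, 762 and 715 FPKM with YM155 and to 998, 1055 and 970.03 FPKM with DMSO. GSTP1 held 68.0% ± 0.847 of the sum with YM155 and 64.9% of it with DMSO. Without GSTP1 the sum was 244 ± 11.1 FPKM with YM155 and 353 ± 16.5 FPKM with DMSO. With DMSO, GSTP1 was slightly more abundant than either GPX2 or PRDX1, and with YM155 both exceeded it: the ratio of GPX2 to GSTP1 was 2.39 ± 0.233 with YM155 and 0.927 ± 0.0290 with DMSO, and that of PRDX1 to GSTP1 was 1.59 ± 0.106 with YM155 and 0.866 ± 0.0158 with DMSO.

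The microsomal transferases are membrane enzymes of another fold, and all 3 were tested. MGST2, which can also make leukotriene C, was at 20.6, 16.4 and 18.7 FPKM with YM155 and at 55.6, 60.5 and 56.0 FPKM with DMSO, 3.09-fold lower with YM155 (log2 fold change -1.58, SE 0.08, adjusted p = 1.2e-07). Its groups were far apart. MGST1, the most abundant of the 3, was at 143, 153 and 161 FPKM with YM155 and at 141, 132 and 142 FPKM with DMSO. These groups were almost in touch (log2 fold change 0.14, SE 0.05, adjusted p = 0.036), but this turned to -0.11, -0.18 and -0.31 with upper-quartile scaling, rescaling to a common sum and quantile normalization. Relative to the median of all tested genes it was 0.11 as deposited and 0.09, 0.09 and -0.24 under those scalings, so the sign relative to that median turned with quantile normalization. By limma MGST1 passed as lower when rescaled to a common sum (adjusted p = 0.025) and with quantile normalization (adjusted p = 0.00070).

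The call of MGST1 as higher was also lost without YM155 replicate 2 (adjusted p = 0.088), YM155 replicate 3 (0.14), DMSO replicate 1 (0.061) or DMSO replicate 2 (0.12). Members called higher numbered 5, against 6, with eBayes without a trend and with no filter on low values. MGST3 was at 20.9, 20.2 and 19.8 FPKM with YM155 and at 22.0, 24.6 and 22.9 FPKM with DMSO (log2 fold change -0.18, SE 0.05, adjusted p = 0.012), and its groups did not overlap. It was -0.42 with upper-quartile scaling and -0.49 both when rescaled to a common sum and with quantile normalization. The ratio of MGST1 to MGST2 within a library was 6.95, 9.37 and 8.61 with YM155 and 2.53, 2.19 and 2.55 with DMSO. MGST2 held 9.71% of the family's summed FPKM with YM155 and 26.2% of it with DMSO.

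Genes that supply or recharge these enzymes are given for comparison. The shares of all tested genes to set beside the counts of each list are 43.6% higher and 41.0% lower. Of 17 tested genes of glutathione synthesis and recycling 8 were higher, near that share, and 5 lower (median -0.04 on the log2 scale), and 9 were lower with upper-quartile scaling or when rescaled to a common sum. Of the 5, GGT6 passed the filter through DMSO alone. Without GGT6 the median was 0.25. Then 8 of 16 were higher (50%, against 44.9% of genes left by the same rule) and 4 lower (25%, against 38.7%). GCLC, encoding the catalytic part of the enzyme that starts glutathione synthesis, averaged 380.3 ± 13.1 FPKM with YM155 and 18.4 ± 0.876 FPKM with DMSO, and its modifier subunit GCLM averaged 32.1 ± 2.71 FPKM with YM155 and 2.68 ± 0.186 FPKM with DMSO. GSR, which returns oxidised glutathione to its reduced form, was 5.73-fold higher, and CHAC1, which breaks glutathione down, was 12.5-fold higher. GLRX5, a glutaredoxin of iron-sulfur cluster assembly, averaged 20.1 ± 0.711 FPKM with YM155 and 22.4 ± 2.69 FPKM with DMSO and did not pass (adjusted p = 0.13).

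Of 10 genes of the thioredoxin system 4 were higher and 5 lower (40% and 50%, near the shares of all tested genes). SRXN1, the sulfiredoxin that repairs overoxidised peroxiredoxins, was 25.9-fold higher with YM155, and TXNRD1, the cytosolic thioredoxin reductase, averaged 842 ± 29.6 FPKM with YM155 and 73.4 ± 1.05 FPKM with DMSO. SESN2, a stress-induced sestrin, was 5.59-fold higher, and TXNIP, an inhibitor of thioredoxin, was 2.64-fold lower. SESN3 did not pass (2.44 ± 0.585 FPKM with YM155 and 1.78 ± 0.138 FPKM with DMSO). Of 3 tested genes of catalase and the superoxide dismutases, CAT was 1.99-fold lower, SOD2 was 1.54-fold higher and SOD1 did not pass (137 ± 5.35 FPKM with YM155 and 132 ± 6.14 FPKM with DMSO). With upper-quartile scaling or when rescaled to a common sum, 3 genes of that list were lower and 1 was still higher. All 4 genes of the list were tested there.

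Of the genes of NRF2 and its partners 6 of 6 were higher, with a median log2 fold change of 2.35. The small MAF genes MAFG, MAFF and MAFK, whose proteins bind DNA together with NRF2, were 5.30-fold, 5.98-fold and 5.65-fold higher, and BACH1, a repressor of the same elements, was 7.21-fold higher. NFE2L2, the gene of NRF2 itself, and KEAP1 of the same list were 2.74-fold and 2.67-fold higher. Among the members that were higher, the largest fold, that of GPX3, was 2.89, above those of NFE2L2 and KEAP1.

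Of 9 genes of selenocysteine incorporation 3 were higher and 5 lower. SEPHS2, which makes the selenium donor, was 2.05-fold higher, whereas SECISBP2, the protein that recruits the machinery to selenoprotein messages, averaged 11.1 ± 0.720 FPKM with YM155 and 20.3 ± 0.601 FPKM with DMSO. SEPHS1 was 1.63-fold lower, SCLY, a selenocysteine lyase, was 1.88-fold lower and TRNAU1AP did not pass (adjusted p = 0.72). Of 11 tested selenoproteins of other families 4 were higher and 5 lower. EPT1 (SELENOI) was 2.99-fold higher and VIMP (SELENOS), of protein degradation at the endoplasmic reticulum, 1.96-fold higher. SEPP1 (SELENOP), the secreted selenium carrier, was at 0.486, 0.385 and 0.545 FPKM with YM155 and at 3.39, 2.85 and 3.03 FPKM with DMSO, so it passed the filter through DMSO alone and its call is no support for a difference. MSRB1, a methionine sulfoxide reductase, was 2.37-fold lower and SEP15 (SELENOF) did not pass (adjusted p = 0.26).

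Of 7 tested genes with a related protein fold or of the microsomal superfamily 4 were higher and 3 lower (0 lower by limma with quantile normalization). Of the 3, GDAP1 passed the filter through DMSO alone. The chloride intracellular channel gene CLIC1 averaged 501 ± 7.04 FPKM with YM155 and 262 ± 10.2 FPKM with DMSO, CLIC4 was 2.70-fold higher, PTGES2 was 1.61-fold higher and CLIC5 was 2.93-fold higher. Of 5 tested exporters of glutathione conjugates 3 were higher and 2 lower. ABCC1 was 1.74-fold higher, ABCC3 was 1.42-fold higher and ABCC4 was 1.77-fold lower.

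**Figure D4:**
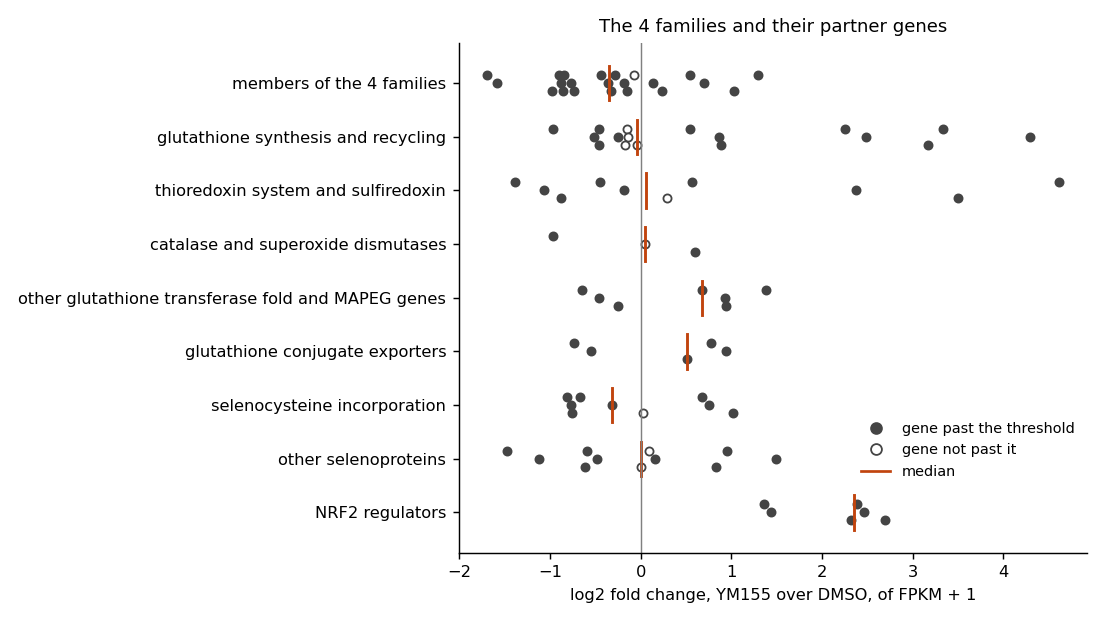
Log2 fold change (YM155 over DMSO, of FPKM + 1) of the 22 tested members and of the tested genes of 8 partner lists; each point is a gene, filled where its adjusted p was under 0.05, and the bar is the median. The members lie between -1.69 and 1.30, while single genes of glutathione synthesis and of the thioredoxin system exceed 4.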

How the data were processed

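Messenger RNA was sequenced from 6 libraries made with a strand-keeping Illumina kit, per the labels' protocols. The authors deposited 1 table of FPKM values per library, per the file headers. The submitters' processing notes name Cufflinks 2.2.1, Cuffdiff, TopHat2 2.1.1, SAMtools 1.2, Bowtie2 2.3.5.1 and the hg19 build. For settings, annotation, library-size scaling and use of strand in quantification, nothing was given in the sources used.

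Genes with at least 1 FPKM in at least 3 libraries were tested with limma 3.58.1 (R 4.3.3) on log2(FPKM + 1), by two-sided tests from eBayes with a trend and no replicate block, adjusted by Benjamini-Hochberg over all 12035 genes. The fit was tested on simulated data. Effective reads were estimated from 1-transcript genes, assuming fragments of 200 bases. Low values came within 0.1 of whole reads in 64.6% to 70.1% of cases, so no count model was used.

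Members and lists were chosen with earlier results of these data known. Named genes were every tested member and, of each partner list, up to 4 genes with the lowest p and the most abundant that did not pass. A gene that this rule names is not reported here. Values per library are given for members averaging 20 FPKM or more in either group or an absolute log2 fold change of at least 1 past the threshold. Those given for the scarce GPX8, GSTA1 and GSTA2 and for the pairs of genes set as ratios were chosen after values were seen. So were GGT6, GDAP1, NFE2L2, KEAP1 and the levels of SEPP1. The fold of GSTM4 is given with no test. Reference protein sequences were not used here, so selenocysteine was read from the codon in GENCODE transcripts, in place of the planned protein. Shared runs of 50 bases were counted over all GENCODE transcripts, both strands.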

Additional observations from a re-analysis of the deposited data

How the results depend on the processing

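Over all other settings the log2 fold changes of the 22 tested members were computed 412 times; 6 values reversed, 16 lost their call and 4 gained one, all of GPX1, GSTO1, MGST1, MGST3, PRDX1 or PRDX6. MGST1 reversed to -0.11, -0.18 and -0.31 and PRDX6 to -0.019, -0.090 and -0.20 with upper-quartile scaling, rescaling to a common sum and quantile normalization; the first 2 shift nearly all genes together, and relative to the median of all tested genes both stayed above 0 there (0.09 and 0.09 for MGST1, 0.19 and 0.18 for PRDX6). With these 3 scalings the log2 ratio of the summed FPKM was 0.62, 0.55 and 0.40 for GPX (0.87 as deposited), -0.65, -0.72 and -0.84 for GST (-0.40 as deposited), -0.45, -0.52 and -0.62 for MGST (-0.19 as deposited), and it reversed to -0.11, -0.18 and -0.32 for PRDX (0.14 as deposited, 0.18 with median-of-ratios scaling). Members called higher were 3 with quantile normalization, against 6. The cause was not tested.

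A mean of at least 5 FPKM left 2922 tested genes lower, against 4940, and lowered the counts of lower genes to 3 for glutathione synthesis, 3 for thioredoxin, 3 for other selenoproteins and 0 for the related folds, since fewer genes were tested. Lower genes of the related folds were also 0 with quantile normalization. Lower genes of glutathione synthesis were 9 with upper-quartile scaling and 9 with rescaling to a common sum, against 5. Lower genes of catalase and superoxide dismutases were 3 with upper-quartile scaling, 3 with rescaling to a common sum, 2 with quantile normalization and 2 with no filter on low values, against 1. Higher genes of that list stayed at 1 in each of these settings. With a replicate block 6 members were higher and 15 lower, as without it, and 5147 and 4861 of all tested genes, against 5251 and 4940. Deviations of same-numbered libraries correlated at -0.07, -0.15 and -0.12, so the numbers were not taken to pair libraries. Leaving out each library gave 5 to 6 members higher and 13 to 16 lower. GSTM4 was not tested with any DMSO library left out, since only the DMSO libraries reached 1 FPKM, or with quantile normalization.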
